A study of Homo sapiens with 16 samples.

Results

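The genes examined were 10 known outputs of BCR-ABL1 and STAT5 signalling, namely CISH, SOCS1, SOCS2, PIM1, BCL2L1, MCL1, CCND2, CCND3, OSM and ID1, out of 19630 protein-coding genes that could be measured. They were chosen by name, and the peaks assigned to each were those inside the gene body or within 10 kb on either side of it (GRCh38), an area called its window here. Acetylation of histone H3 at lysine 27 (H3K27ac), a mark of active promoters and enhancers, was measured by ChIP-seq in fixed K562 cells, an untreated human leukemia line that carries the BCR-ABL1 fusion and has erythroid features. In the fixed-antibody arm, 0.25 µg of antibody was added to 7 amounts of chromatin between 0.31 and 20 µg, quantified by its DNA (DNA_chrom), which gave antibody titers of 32, 16, 8, 4, 2, 1 and 0.5 from the smallest amount to the largest (titer 1 is 0.25 µg of antibody per 10 µg). In the normalized arm, the same 7 amounts of DNA_chrom were used and the antibody was scaled to titer 1. Libraries are named by amount and titer, so that 0.31-T32 had the most antibody per chromatin. There was 1 library and 1 peak list per condition, and 10-T1a of the fixed-antibody arm and 10-T1b of the normalized arm were the only pair made at the same amount and titer.

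STAT5 is a transcription factor that is phosphorylated by JAK kinases downstream of cytokine receptors and, in chronic myelogenous leukemia cells, downstream of the BCR-ABL1 fusion kinase. It binds as a dimer to a palindromic DNA element and activates genes of several kinds. CISH, SOCS1 and SOCS2 encode feedback inhibitors of cytokine signalling, PIM1 encodes a survival kinase, BCL2L1 (BCL-XL) and MCL1 encode anti-apoptotic proteins, CCND2 and CCND3 encode D-type cyclins that drive entry into the cell cycle, OSM encodes the cytokine oncostatin M, and ID1 encodes an inhibitor of differentiation that blocks basic helix-loop-helix factors.

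Peaks had been called by the authors library by library. At a -log10 q of at least 2, which keeps q-values up to 1%, there were 7 fixed-antibody lists with 64083 to 81930 peaks over 32.8 to 65.3 Mb, and 7 normalized lists with 68137 to 82143 over 54.4 to 75.3 Mb. Read numbers are not in the lists and were not used here. Each arm was compared with its own input, so arm and input or preparation cannot be told apart, and within the fixed-antibody arm titer cannot be told apart from DNA_chrom. All 8 erythroid marker genes examined had a peak within 1 kb of the transcription start site (TSS) in all 14 lists. Among marker genes of other lineages, 6 had no such peak in any list and CD79A had one in all 14.

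All 10 genes carried H3K27ac in every library. Each had a peak within 1 kb of its TSS, taken as the annotated start of the gene, in all 14 lists, as did 47.6% of the 19630 genes. With a stricter -log10 q of at least 5, OSM was the exception and the background was 38.2%. The windows of the 10 genes together held 122 to 145 peaks per fixed-antibody list and 110 to 119 per normalized list, which covered 22.5% to 36.1% and 33.7% to 40.6% of their length. The 14 lists combined gave 131 merged regions in these windows, of which 31 had a peak in all 14 lists and 53 in a single list. CCND3 had the most merged regions, 45, and BCL2L1 the fewest, 4, since most of the BCL2L1 window was joined into 1 region of 47.9 kb. The windows of no pair of these genes overlapped, although ID1 and BCL2L1 lie 57.9 kb apart on chromosome 20.

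The level of acetylation differed widely among the genes. In the normalized arm, the mean fold enrichment of the strongest peak was 27.8 ± 2.82 (SD, n = 7 lists) at CISH, 21.8 ± 3.32 at SOCS2, 21.2 ± 2.83 at BCL2L1, 19.2 ± 2.90 at MCL1 and 17.1 ± 2.11 at PIM1. It was 16.8 ± 2.30 at CCND3, 16.5 ± 2.02 at ID1, 14.9 ± 1.86 at SOCS1, 14.05 ± 1.90 at CCND2 and 6.23 ± 1.37 at OSM. In this order, CISH exceeded its neighbour SOCS2 by 5.96 ± 5.19 and CCND2 exceeded OSM by 7.82 ± 1.51, and the 7 other neighbouring pairs differed by less than the SD of their difference. CCND2 was above OSM in all 14 lists, whereas CISH was above SOCS2 in 6 of the 7 normalized lists and in 8 of all 14. With fixed antibody the mean was higher at SOCS2, 16.1 ± 6.45 against 14.1 ± 4.31 at CISH. The covered share of the window gave another order. Peaks covered 75.9% ± 2.48 of the CISH window, 71.3% ± 2.30 at PIM1 and 70.4% ± 1.66 at BCL2L1, followed by 45.8% ± 3.36 at ID1 and 43.3% ± 5.06 at MCL1. The covered share was 34.4% ± 3.50 at CCND3, 33.4% ± 3.13 at SOCS1, 14.4% ± 2.88 at OSM, 12.8% ± 2.04 at SOCS2 and 11.6% ± 2.08 at CCND2. PIM1 and BCL2L1 were not separated beyond the spread, nor were ID1 and MCL1, CCND3 and SOCS1, or OSM, SOCS2 and CCND2 in that order. SOCS2 thus had the second strongest peak but one of the smallest covered shares.

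The promoter sequences of 6 of the genes are in the RefSeq-based table used (GRCh38.p14, 250 bases before to 50 after a start), with 9 promoters in all. CISH is the gene with STAT-type elements in this window, and PIM1 has a peak-free gap at the same place and no such element. The SOCS1 promoter had a peak on it in 14 lists and was under peaks over its whole length in 8. The promoters of CISH, PIM1 and SOCS1 are shown. Each is written 5′ to 3′ on the strand of the gene, and capitals mark matches to TTCNNNGAA, the palindromic element bound by STAT dimers.
CISH promoter, chr3:50611725-50612024, minus strand: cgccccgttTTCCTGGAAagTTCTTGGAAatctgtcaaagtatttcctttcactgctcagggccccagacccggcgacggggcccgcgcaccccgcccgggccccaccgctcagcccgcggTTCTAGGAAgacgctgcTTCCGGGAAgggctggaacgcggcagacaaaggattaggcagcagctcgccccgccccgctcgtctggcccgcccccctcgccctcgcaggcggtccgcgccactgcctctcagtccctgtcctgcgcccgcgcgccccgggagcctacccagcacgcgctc
PIM1 promoter, chr6:37169902-37170201, plus strand: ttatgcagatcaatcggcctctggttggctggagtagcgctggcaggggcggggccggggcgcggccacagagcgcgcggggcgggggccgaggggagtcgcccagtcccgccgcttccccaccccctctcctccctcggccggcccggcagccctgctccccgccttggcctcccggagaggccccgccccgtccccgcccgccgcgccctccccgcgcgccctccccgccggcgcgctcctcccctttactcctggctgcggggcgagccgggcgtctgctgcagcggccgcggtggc
SOCS1 promoter, chr16:11256155-11256454, minus strand: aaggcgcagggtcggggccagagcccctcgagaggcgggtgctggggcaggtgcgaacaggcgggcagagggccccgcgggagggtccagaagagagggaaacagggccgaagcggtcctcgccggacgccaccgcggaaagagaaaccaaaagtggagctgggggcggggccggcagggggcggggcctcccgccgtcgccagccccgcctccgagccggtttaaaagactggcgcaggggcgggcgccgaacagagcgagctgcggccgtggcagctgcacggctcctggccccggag
CISH had 4 matches, TTCCTGGAA, TTCTTGGAA, TTCTAGGAA and TTCCGGGAA, which begin at positions -241, -230, -129 and -112 relative to the TSS. The other 8 promoters of these genes had 0. Among all 35116 promoters of the table, 7.66% had at least 1 match on either strand, 0.456% had 2 or more, and 7 promoters had 4 or more. AGATAA, the motif of GATA factors, was found on either strand in 0 of the 9 promoters and in 10.3% of all promoters. A match is a stretch of letters and not a measured binding site.

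The 4 elements at CISH lay between peaks and not under them. None was covered by a peak in any of the 14 lists. The peak-free gap that held the base 150 bases upstream of the TSS was 391 to 591 bp long, with a median of 474 bp, and was flanked on the downstream side by a merged region of 13.9 kb across CISH and on the upstream side by one of 2050 bp. MAPKAPK3, a kinase gene, starts 254 bp from the CISH TSS in the same window, so the gap and the peaks beside it belong to both genes. PIM1 had such a gap in all 14 lists as well, of 394 to 551 bp, and so had MCL1, of 227 to 331 bp. The base 150 bases upstream of the TSS was in no list under a peak at these 3 genes, as was the case at 32.1% of the 9351 genes that had a TSS peak in all 14 lists. At CCND3 that base was under a peak in all 14 lists and at SOCS1 in 13. The map of lists covering each window shows the gaps beside the dotted line of the TSS.

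**Figure D1:**
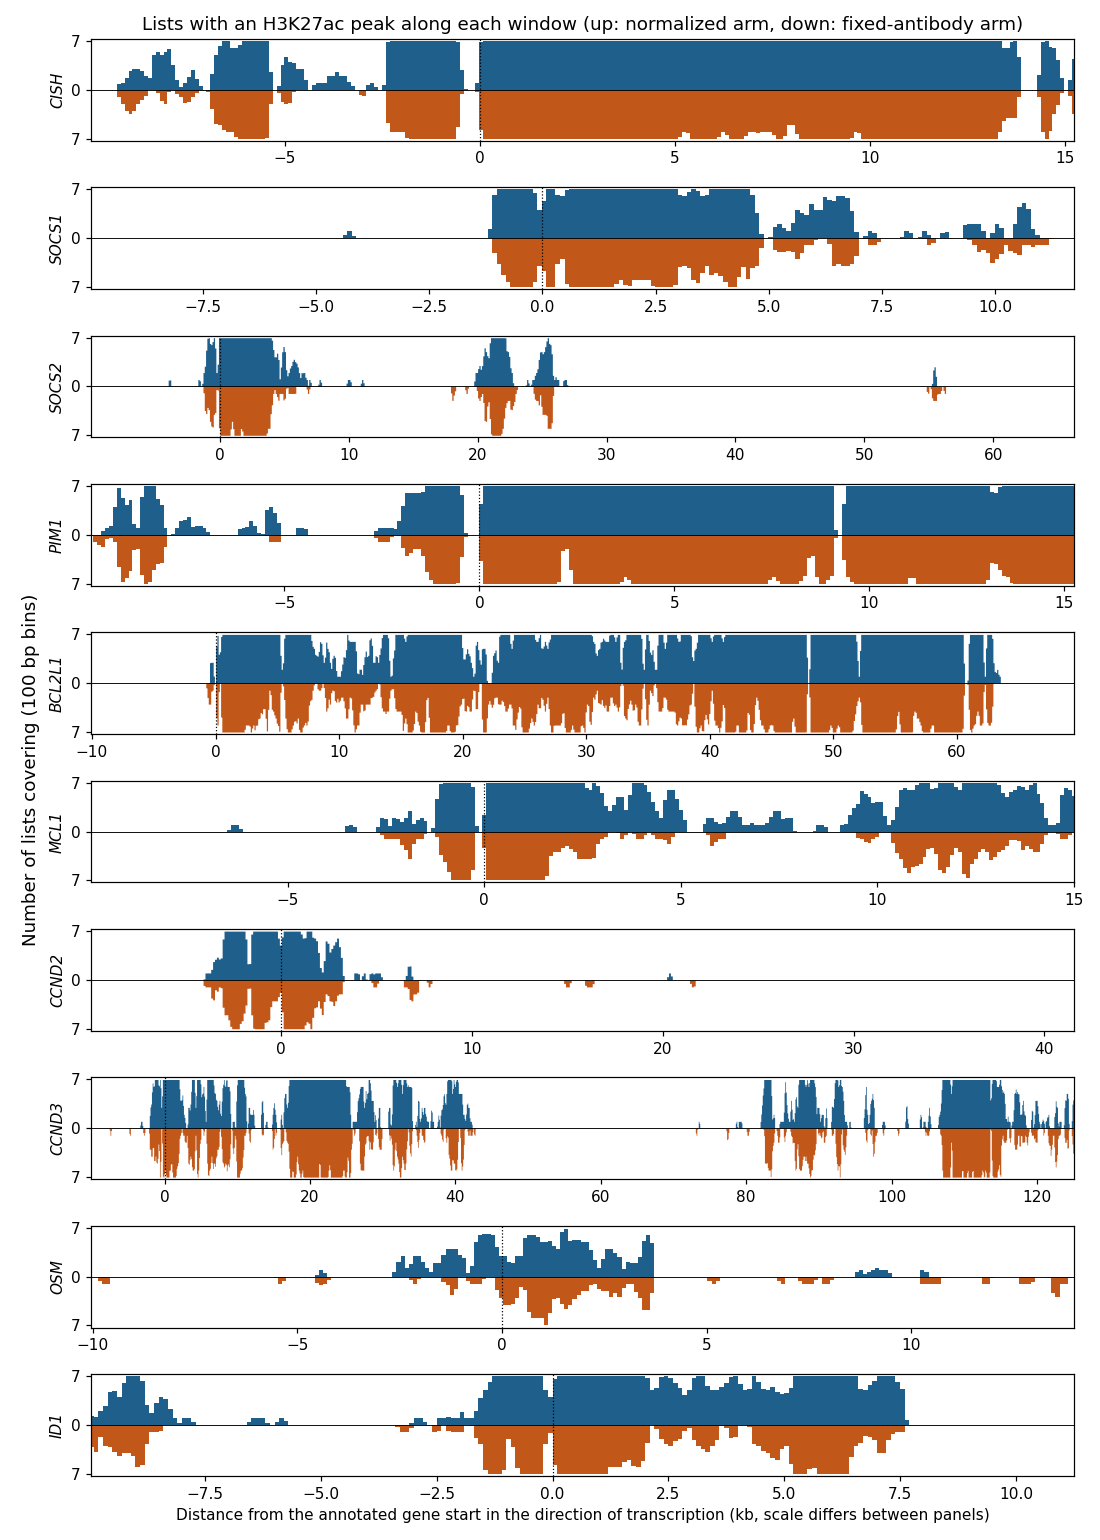
Number of peak lists covering each 100 bp bin along the windows of the 10 genes, against the distance from the annotated gene start in kb in the direction of transcription, with the 7 normalized lists above the line and the 7 fixed-antibody lists below it. CISH, PIM1 and BCL2L1 were covered over most of the window in the normalized lists, CISH, PIM1 and MCL1 had a gap just upstream of the start, and no base at OSM was covered in all 14 lists.

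The first comparison asked how the acetylation called at these genes changed with antibody titer at a fixed amount of antibody. The fold enrichment of the strongest peak fell with titer at 9 of the 10 genes, with a fitted ratio per doubling of titer between 0.840 at CCND2 and 0.918 at PIM1, and OSM was the exception. The decline was steepest at CCND2, SOCS2 and BCL2L1, with slopes of -0.25, -0.25 and -0.23 on the log2 scale per doubling, and shallowest among the 9 at PIM1, with -0.12. Across all genes, 75.6% of the 12345 tested fell likewise and 0.0486% rose, and at an unadjusted p under 0.05 by the exact permutation test described next 79.6% were lower and 0.0648% higher, against 9 and 0 of the 10 genes. The median slope was -0.17 for the 10 genes and -0.17 for all genes tested. From 0.31-T32 to 10-T1a, the median change was 1.86-fold upward in these genes and 1.82-fold in the 12191 genes with a peak in all 14 lists. Between the libraries made at the same amount and titer, 10-T1b over 10-T1a, it was 1.09-fold in the median of the 10 genes, higher in 9 of them, and 0.983-fold in all such genes. The step from 0.31-T32 to 10-T1a was larger in size in 9 of the 10, with OSM as the exception.

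These declines were called by an exact permutation test of Pearson's r between log2 fold enrichment and log2 titer over all pairings of the 7 libraries, two-sided, with Benjamini-Hochberg adjustment over all genes tested. Among the 9 genes r ran from -0.821 at MCL1 (exact permutation test, p = 0.0302, adjusted p = 0.0417) to -0.986 at CISH (exact permutation test, p = 0.000397, adjusted p = 0.00633), the smallest p the test can give. Spearman's rho ran from -0.821 (exact permutation test, p = 0.0341) at MCL1 to -1 (exact permutation test, p = 0.000397) at CISH. Without 0.31-T32 and 20-T0.5, which lie farthest from the middle of the titers, r stayed between -0.802 and -0.983 in the 9 genes. In that fit 0 of the 10 and 0% of all genes were called. An unadjusted p under 0.05 in the exact permutation test was reached by 4 of the 10, a count not set against all genes. The direction depended on the scale in some genes: as a percentile among the peaks of its own list, the strongest peak had a positive r with titer at PIM1, SOCS1, MCL1, ID1 and OSM, and no gene of the whole table was called on that scale in either direction. On a linear scale of titer, 2 of the 10 genes were called, and 27.6% of all genes. With the median of each list subtracted, 8 of the 10 genes were called lower, and so were 68.2% of all genes, with 0.0729% higher.

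**Figure D2:**
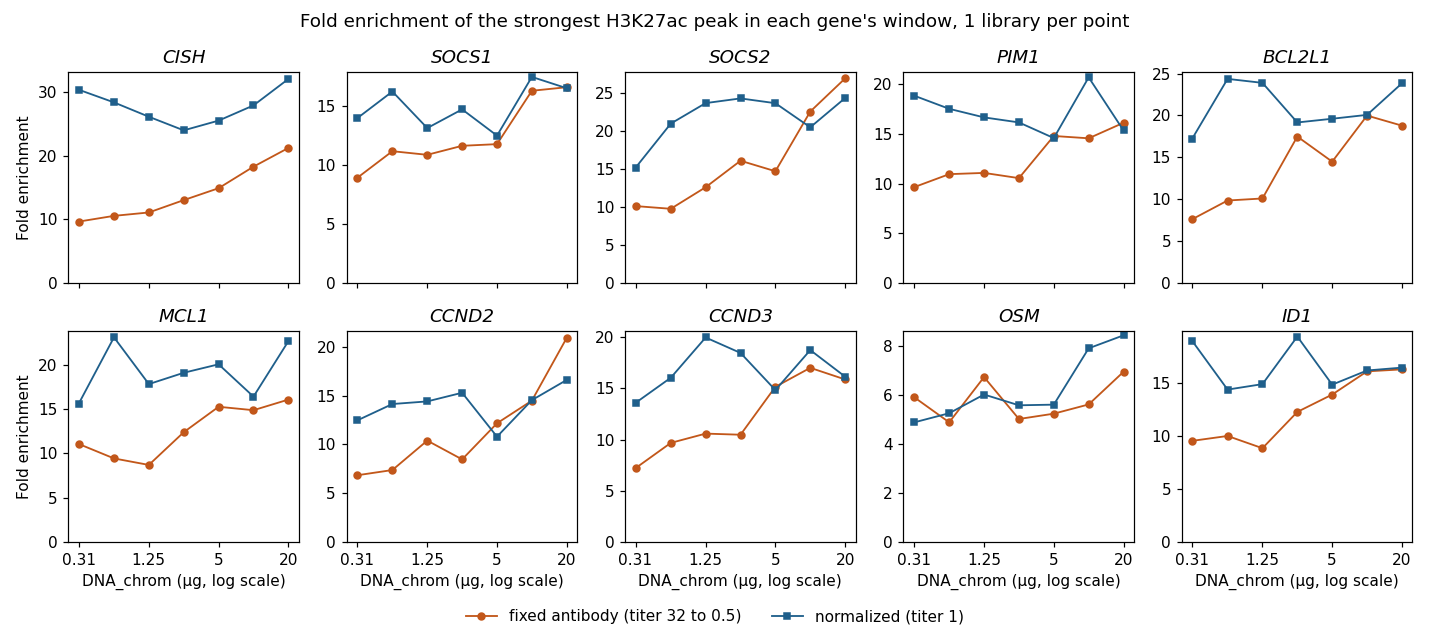
Fold enrichment of the strongest H3K27ac peak in the window of each gene (vertical axis, from 0) against DNA_chrom in µg (log scale), 1 library per point, for the fixed-antibody arm (circles, titer 32 on the left to 0.5 on the right) and the normalized arm (squares, titer 1). The fixed-antibody values climbed from left to right at 9 genes and not at OSM, though as percentiles within their lists those of PIM1, SOCS1, MCL1 and ID1 did not, and at CISH all 7 normalized values (24.0 to 32.1) lay above all 7 fixed-antibody values (9.62 to 21.2).

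The length covered by peaks also changed with titer. In base pairs it fell with titer at 8 of the 10 genes (background, 52.3% of 14443 genes tested, with 0.18% in the other direction). As a share of the total length of each list, it was called upward at PIM1 and CISH and was called at none of the other 8. On that scale r was positive at 7 of the 10 genes, including BCL2L1 (0.83) and CCND3 (0.771), a count not set against all genes. The list totals themselves doubled along the arm, from 32.8 Mb in 0.31-T32 to 65.3 Mb in 10-T1a, and the 10 windows held 0.333% of the total in 0.31-T32 and 0.264% in 10-T1a. In base pairs, the slope per doubling of titer was -4142 ± 650 bp (SE, n = 7) at BCL2L1, -3009 ± 605 bp at CCND3, -943 ± 142 bp at MCL1, -893 ± 160 bp at SOCS2 and -727 ± 70.5 bp at CCND2. It was -582 ± 113 bp at CISH, -544 ± 74.5 bp at SOCS1 and -460 ± 92.6 bp at PIM1. ID1, with -664 ± 183 bp (exact permutation test, p = 0.0266, adjusted p = 0.0504), and OSM, with -153 ± 125 bp (exact permutation test, p = 0.268, adjusted p = 0.32), were not called. At an unadjusted p under 0.05 in the exact permutation test, 9 of the 10 genes were lower, as were 62.5% of all genes, with 0.415% higher. Relative to its own mean, the slope was -16.9% per doubling at MCL1 and -2.77% at PIM1, with a median of -9.08% for the 10 genes and -11.0% for all genes tested.

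The 8 calls had a Pearson's r of -0.912 to -0.977 (exact permutation test, adjusted p = 0.00914 to 0.0237), with Spearman's rho between -0.857 and -1 (exact permutation test, p = 0.0238 to 0.000397). Without 0.31-T32 and 20-T0.5, r was between -0.906 and -0.969 in these 8 genes, and 0 of the 10 and 0% of all genes were called. An unadjusted p under 0.05 in the exact permutation test was reached by 6 of the 10, a count not set against all genes. The number called depended on single libraries. It was 2 without 0.31-T32, 3 without 2.5-T4 and 5 without 10-T1a, with 11.6%, 17.5% and 34.2% of all genes, and 8 without any other single library. In those fits without 0.31-T32, 2.5-T4 or 10-T1a, 9, 9 and 8 of the 10 still had an unadjusted p under 0.05 (exact permutation test). These counts were not set against all genes. As a share of the list total, r = 0.951 at PIM1 and r = 0.965 at CISH (exact permutation tests, p = 0.00119 and 0.000794, adjusted p = 0.0425 and 0.0387) were the calls in the upward direction, against 2.87% of all genes.

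The base pairs added toward titer 1 were divided into those within 2 kb of the TSS on either side and those beyond. The part near the TSS has the same length at every gene, in windows of 21.2 kb at ID1 to 135.1 kb at CCND3. In 0.31-T32, peaks covered between 1169 bp (OSM) and 3356 bp (CISH) of that part, with 3232 bp at ID1 and 1728 bp at BCL2L1. Less of it was thus left to add at CISH and ID1 than at the other genes. The shares that follow were not adjusted for window length or for this starting cover. Between 0.31-T32 and 10-T1a, the share of the added length that was within 2 kb of the TSS was 0.176% at BCL2L1, 5.09% at CISH, 9.73% at ID1 and 10.9% at CCND3. It was 16.7% at PIM1, 19.4% at MCL1, 28.3% at SOCS2, 29.7% at SOCS1, 30.3% at CCND2 and 60.0% at OSM. At MCL1 the length within 2 kb of the TSS was 2222 bp in 0.31-T32 and 3140 bp in 10-T1a, and the length beyond was 708 bp and 4513 bp. At CCND2 it was 2228 bp and 3319 bp within, and 490 bp and 2999 bp beyond. At CCND3 alone the ratio of 10-T1a to 0.31-T32 was larger near the TSS, 2.12 within 2 kb against 1.70 beyond it. These are single libraries, were not tested and were not set against all genes.

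**Figure D3:**
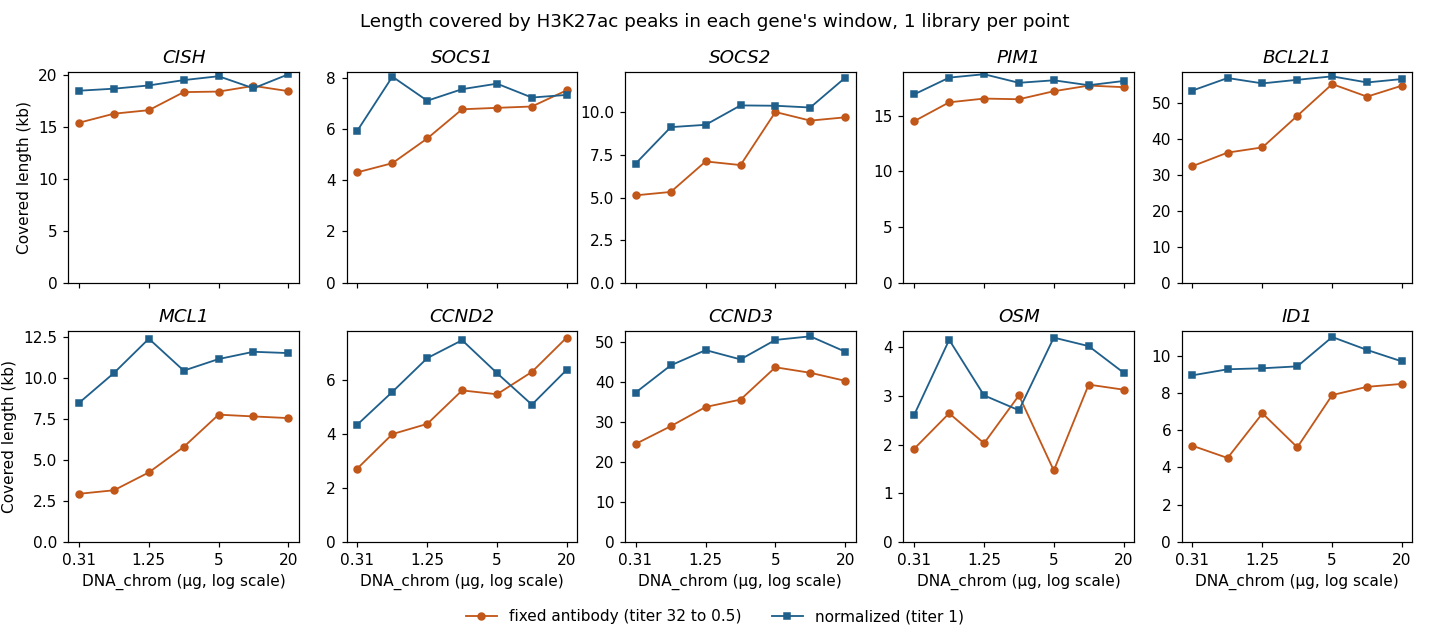
Length in kb covered by H3K27ac peaks in the window of each gene (vertical axis, from 0) against DNA_chrom in µg (log scale), 1 library per point, for the fixed-antibody arm (circles) and the normalized arm (squares, titer 1). At MCL1 and ID1 all 7 normalized values lay above all 7 fixed-antibody values, and at BCL2L1 the fixed-antibody values went from 32.4 kb at the left to about the normalized level; relative to the total length of each list, PIM1 and CISH went the other way with titer.

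**Figure D4:**
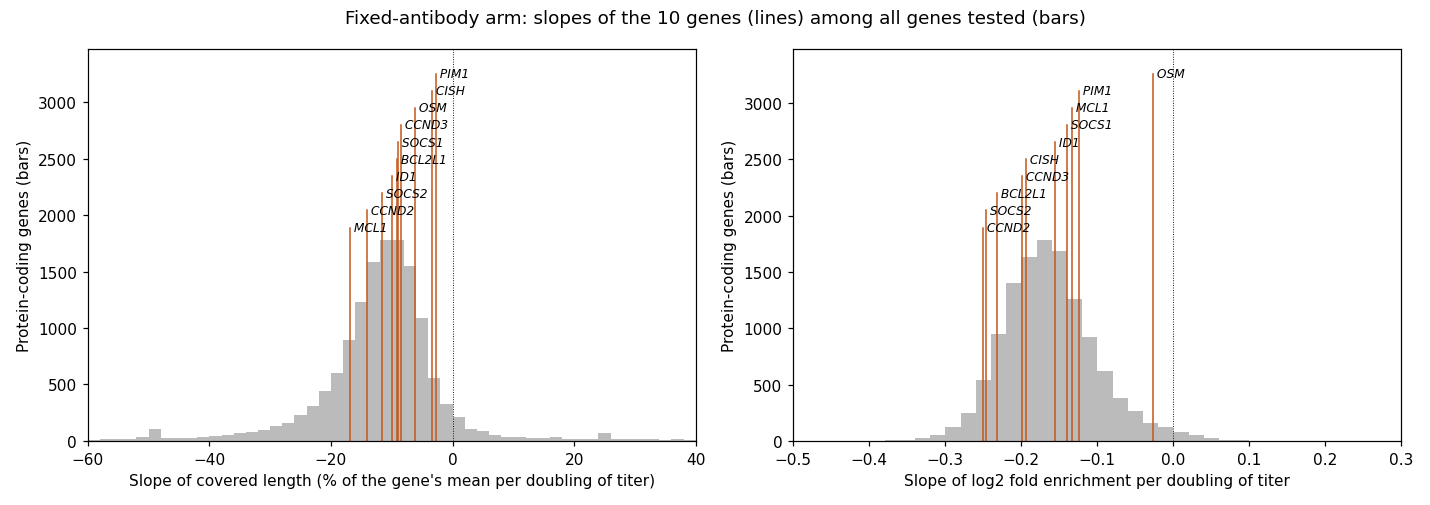
Slopes in the fixed-antibody arm of the 10 genes (orange lines) among all protein-coding genes tested (grey bars, number of genes per bin), for covered length in percent of the gene's mean per doubling of titer (left) and for log2 fold enrichment of the strongest peak per doubling (right). The 10 genes were spread over the range of all genes; on the right OSM stood highest, with 97.4% of genes below it, and CCND2 lowest, with 5.51% below it; the lengths are in base pairs and not relative to the list totals.

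The second comparison asked whether the acetylation called changed with DNA_chrom when the titer was held at 1. The amount of antibody rose with DNA_chrom in this arm, so the amounts of chromatin and antibody cannot be told apart. No gene was called, neither among the 10 nor in the whole table (0% of 14450 genes for covered length and 0% of 12837 for fold enrichment, exact permutation test with Benjamini-Hochberg adjustment). At an unadjusted p under 0.05 in the exact permutation test, covered length was higher with more DNA_chrom at SOCS2 (Pearson's r = 0.919, p = 0.00337, adjusted p = 0.124) and CCND3 (r = 0.781, p = 0.0304, adjusted p = 0.208), against 20.1% of all genes (0.0554% lower), and fold enrichment at OSM (r = 0.886, p = 0.00873, adjusted p = 0.32), against 11.6% (0.343% lower). The respective rho values were 0.857 (exact permutation test, p = 0.0238), 0.714 (p = 0.0881) and 0.893 (p = 0.0123). Without 0.31-T1 and 20-T1, r was 0.848 for SOCS2, 0.872 for CCND3 and 0.733 for OSM (exact permutation test, p = 0.15, 0.0667 and 0.183). The slope of log2 fold enrichment per doubling of DNA_chrom in this arm lay between -0.02 at PIM1 and 0.12 at OSM, and it was 0.01 at CISH.

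Whether the arms differed in slope was tested by swapping them within each amount of DNA_chrom in every combination, a test added after the data had been seen. The swaps also carry the difference in level between the arms, so a difference in slope can be missed. A lack of calls therefore does not show that the slopes were alike. None of the 10 genes and 0% of all genes were called for covered length or fold enrichment. The smallest p among the 10 genes was 0.0625 (exact permutation test, adjusted p = 0.313 for fold enrichment), at CCND2, whose log2 fold enrichment changed by 0.25 per doubling of DNA_chrom in the fixed-antibody arm and by 0.03 in the normalized arm. OSM was the one gene with the larger fold-enrichment slope in the normalized arm, 0.12 against 0.03 (exact permutation test, p = 0.109, adjusted p = 0.384). At an unadjusted p under 0.05, 0 of the 10 genes and 12.7% of all genes had the smaller fold-enrichment slope in the normalized arm, and 4.21% the smaller slope of covered length.

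The third comparison set the normalized library against the fixed-antibody library at the same DNA_chrom, over the 6 amounts at which titers differed. In base pairs, peaks covered more in the normalized arm on average at all 10 genes, while as a share of the total length of each list the mean difference was negative at 8 of them and positive at MCL1 and ID1. In base pairs the mean difference was 12264 ± 3631 bp (SE, n = 6 pairs) at BCL2L1, 11108 ± 1458 bp at CCND3, 5477 ± 760 bp at MCL1, 3275 ± 537 bp at ID1, 2333 ± 505 bp at SOCS2, 2023 ± 296 bp at CISH and 1639 ± 309 bp at PIM1, in 6 of 6 pairs each. The mean difference was 1335 ± 484 bp at SOCS1, 1184 ± 524 bp at CCND2 and 994 ± 428 bp at OSM, with 5 of 6 pairs each. The 10 windows together held a smaller share of the list total in the normalized library in 6 of 6 pairs, from 0.301% against 0.333% at 0.31 µg to 0.264% against 0.276% at 20 µg. An exact sign-flip permutation test over 64 patterns cannot go below p = 0.0312, which the first 7 genes reached with an adjusted p of 0.0734, so none of the 10 genes and 0% of 14700 genes were called. At an unadjusted p under 0.05, 41.9% of all genes had more base pairs covered in the normalized arm and 0.653% had fewer. As a share of the list total, the same exact test reached p = 0.0312 with more in the normalized arm at MCL1 and with less at PIM1, CISH and BCL2L1 (adjusted p = 0.126 each). How many of all genes did so on that scale was not counted.

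For fold enrichment, the mean ratio of the normalized to the fixed-antibody library, averaged on the log2 scale, was 2.14 at CISH, 1.71 at BCL2L1, 1.65 at MCL1 and 1.42 at ID1, each higher in 6 of 6 pairs (p = 0.0312 by the exact sign-flip test and 0.0932 after adjustment). It was 1.54 at SOCS2, 1.48 at CCND3, 1.38 at PIM1, 1.35 at CCND2, 1.24 at SOCS1 and 1.02 at OSM, with 4 or 5 of 6 pairs higher. As a percentile within the list, CISH alone of the 10 genes reached p = 0.0312 in the exact test (adjusted p = 0.143), and the mean difference was negative at SOCS1 and OSM. The share of all genes at that p on the percentile scale was not counted. None of the 10 genes and 0% of 12200 genes were called, and at an unadjusted p under 0.05 in this exact test 32.6% of all genes were higher and 0.885% lower. At 10 µg, where the titer was the same in both arms, 10-T1b was 1.53 times 10-T1a at CISH, 1.42 times at PIM1 and 1.41 times at OSM, and 0.908 to 1.10 times at the other 7 genes. For covered length the ratio at 10 µg was 1.52 at MCL1, 1.24 at OSM, 1.24 at ID1 and 1.22 at CCND3, 0.807 at CCND2, and 0.988 to 1.08 at the other 5. The 7 normalized lists did not overlap with the 7 fixed-antibody lists in covered length at MCL1 and ID1 (5.92% of all genes) and in fold enrichment at CISH (5.17% of all genes).

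CISH (chr3:50606489-50611774, minus strand), the feedback inhibitor whose promoter is shown above with 4 STAT-type elements, had the strongest signal of the 10 genes in the normalized arm. The fold enrichment of its strongest peak had a lowest value of 9.62, a median of 12.999 and a highest of 21.2 in the fixed-antibody lists, and 24.0, 27.9 and 32.1 in the normalized lists. The arms did not overlap, and in the normalized lists this peak was at or above the percentile of 99.9 among all peaks of its list. Its summit was 9998 to 10979 bp downstream of the TSS in 6 of the 7 normalized lists, beyond the end of the gene, and 646 bp downstream in 2.5-T1. The peak itself reached to the promoter, since in those lists the strongest peak within 1 kb of the TSS had the same value. The longest peak of the window was 13.4 to 13.9 kb in every normalized list, and had a lowest value of 6.16, a median of 13.8 and a highest of 13.9 kb with fixed antibody.

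SOCS1 (chr16:11254417-11256204, minus strand) is a short gene whose product inhibits JAK kinases. Its strongest peak had a fold enrichment of 8.89, 11.6 and 16.6 (lowest, median, highest) in the fixed-antibody lists and of 12.5, 14.7 and 17.5 in the normalized lists. The arms overlapped, and the strongest summit was within 2 kb of the TSS in all 14 lists. The covered length was 4307, 6770 and 7512 bp in the fixed-antibody lists and 5920, 7331 and 8043 bp in the normalized lists. All 300 bases of the printed promoter were under peaks in 4 lists of each arm, and at least 98 of them in every list.

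SOCS2 (chr12:93569969-93626236, plus strand), an inhibitor of growth hormone and cytokine receptors, had a region of 8386 bp around its TSS and one of 3297 bp downstream in all lists, in a window of 76.3 kb. Fold enrichment of the strongest peak was 9.74, 14.7 and 26.9 in the fixed-antibody lists, the highest in 20-T0.5, and 15.2, 23.7 and 24.3 in the normalized lists, the lowest in 0.31-T1. The fixed-antibody range spanned the whole normalized range. The TSS itself was under a peak in all 14 lists. The covered length was 5128, 7118 and 10018 bp in the fixed-antibody lists and 6984, 10282 and 12028 bp in the normalized lists, with overlap.

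PIM1 (chr6:37170152-37175428, plus strand), the survival kinase, had wide coverage over the gene that continued past its end to the edge of the window. Upstream of the TSS, regions of 1804 bp and 1864 bp were also present in all 14 lists. Its strongest peak reached a fold enrichment of 9.63, 11.1 and 16.1 in the fixed-antibody lists and 14.6, 16.7 and 20.7 in the normalized lists, and the arms overlapped. The strongest summit was found in 3 merged regions depending on the list, from 773 bp upstream to 14.1 kb downstream of the TSS. The covered length was 14506, 16550 and 17718 bp in the fixed-antibody lists and 16918, 18130 and 18739 bp in the normalized lists. In all 14 lists together, 13823 bp were covered in every list, 65.1% of the bases covered in any list and the highest share among the 10 genes.

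BCL2L1 (chr20:31664452-31723963, minus strand), which encodes BCL-XL, was acetylated over most of its body. Peaks covered 32415, 46441 and 55262 bp in the fixed-antibody lists and 53451, 56453 and 57409 bp in the normalized lists, of a window of 79512 bp. The covered length overlapped between the arms only at titers of 2 and 0.5. The same domain was broken into 26, 36 and 42 peaks in the fixed-antibody lists and into 18, 20 and 26 in the normalized lists, and the mean length per peak was 862 to 2109 bp and 2056 to 3164 bp, respectively. The most peaks, 42, were in 0.62-T16. Fold enrichment at its strongest peak came to 7.60, 14.5 and 19.99 in the fixed-antibody lists and 17.2, 20.1 and 24.4 in the normalized lists. Its summit was 48.2 to 48.3 kb downstream of the TSS in all 7 normalized lists, inside the gene, and either there, at 46.2 to 48.8 kb, or at 17.6 to 18.3 kb in the fixed-antibody lists. The annotated TSS was in no list under a peak, whereas a second promoter in the table, 1.10 kb downstream, was fully covered in all 14 lists. Fold enrichment at that promoter was at most 14.1 with fixed antibody (20-T0.5) and at least 14.3 in the normalized arm (0.31-T1). This narrow separation was not set against all promoters, and the strongest peak of the window overlapped between the arms.

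MCL1 (chr1:150574558-150579610, minus strand), an anti-apoptotic gene with a short-lived product, showed the largest relative change of covered length with titer of the 10 genes in base pairs. Peaks covered 2930, 5794 and 7762 bp in the fixed-antibody lists and 8462, 11155 and 12396 bp in the normalized lists, without overlap. The bases covered in all 14 lists numbered 2241, of which 95.4% were within 2 kb of the TSS. Fold enrichment of the strongest peak was 8.68, 12.4 and 16.1 in the fixed-antibody lists and 15.6, 19.1 and 23.1 in the normalized lists, with overlap between 20-T0.5 and 0.31-T1, and its summit was within 1 kb of the TSS in all 14 lists.

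The D-type cyclin genes differed in shape. CCND2 (chr12:4273762-4305353, plus strand) had one acetylated region around its TSS, 7.34 kb long when all lists were merged, and it was the only one of its 10 merged regions present in all lists. Its strongest peak reached a fold enrichment of 6.84, 10.4 and 21.0 in the fixed-antibody lists and 10.8, 14.4 and 16.6 in the normalized lists, so that 20-T0.5 of the fixed-antibody arm exceeded all normalized lists. Peaks covered 2718, 5487 and 7597 bp in the fixed-antibody lists and 4351, 6274 and 7498 bp in the normalized lists, with overlap.

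CCND3 (chr6:41934933-42050035, minus strand) had 10 regions present in all lists, spread over a gene of 115103 bp. Peaks covered 24531, 35662 and 43765 bp in the fixed-antibody lists and 37402, 47684 and 51522 bp in the normalized lists. Fold enrichment at its strongest peak came to 7.20, 10.6 and 17.0 in the fixed-antibody lists and 13.6, 16.1 and 19.98 in the normalized lists, and both measures overlapped between the arms. The strongest summit was in a region 20.8 kb downstream of the annotated start, inside the gene, in 11 of 14 lists. In 0.31-T32 and 2.5-T4 it was instead 563 bp upstream and 664 bp downstream of the start of a promoter in the table that lies 108.2 kb into the gene, close to its other end. The 3 promoters of CCND3 in the table had peaks in all 14 lists. TAF8, which encodes a subunit of a general transcription factor, starts 489 bp from the annotated start of CCND3, so the peaks there belong to both genes.

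OSM (chr22:30262829-30266851, minus strand), the cytokine gene, had the weakest acetylation. Fold enrichment of the strongest peak was 4.87, 5.60 and 6.93 in the fixed-antibody lists and 4.87, 5.59 and 8.42 in the normalized lists, and the arms overlapped. Its percentile among the peaks of the list was 58.5 to 81.2 and 46.0 to 77.6, whereas at the other 9 genes it was at least 87.0 in every list. The fixed-antibody trend of fold enrichment gave r = -0.283 and rho = -0.321 (exact permutation tests, p = 0.513 and 0.498, adjusted p = 0.526 for r). Peaks covered 1468, 2645 and 3235 bp in the fixed-antibody lists and 2600, 3481 and 4202 bp in the normalized lists. No base of the window was covered in all 14 lists, although 10419 bases were covered in at least 1, and 9 of its 15 merged regions were found in a single list. Across the 14 lists, the correlation of log2 fold enrichment between OSM and another of the 10 genes was 0.110 to 0.487, whereas it was 0.683 to 0.900 between any 2 of the other 9. The lists share inputs within an arm, so these correlations are descriptive.

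ID1 (chr20:31605289-31606510, plus strand), the inhibitor of differentiation, had a fold enrichment of 8.85, 12.3 and 16.3 in the fixed-antibody lists and of 14.4, 16.2 and 19.4 in the normalized lists, with overlap. The strongest summit was within 2 kb of the TSS in all 14 lists. Peaks covered 4507, 6904 and 8489 bp in the fixed-antibody lists and 8948, 9430 and 11008 bp in the normalized lists, without overlap. The bases that all 7 normalized lists covered and no list of titer over 1 covered numbered 388 at ID1, 412 at MCL1, 430 at CCND3, 212 at BCL2L1 and 178 at PIM1, and 29 or fewer at the other 5 genes.

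The wider pathway was described by 55 other genes of the BCR-ABL1, JAK and STAT pathway and of apoptosis, of which 38 had a peak within 1 kb of the TSS in all 14 lists. In base pairs, covered length fell with titer at 29 of the 55 (background, 52.3%) and rose at 0, with a median r of -0.830 against -0.834 for all genes tested. Fold enrichment fell at 44 of the 51 genes tested (background, 75.6%) and rose at 0, with a median r of -0.905 against -0.885. The genes with the steepest called decline in covered length were STAT5B, GRB2, STAT5A and GAB2. STAT5B and STAT5A, the genes of STAT5 itself, went from 14063 and 21923 bp in 0.31-T32 to 33063 and 36572 bp in 10-T1a, with slopes of -3268 and -2562 bp per doubling of titer (exact permutation test, adjusted p = 0.0137 and 0.00969). GRB2 and GAB2, adaptors that link BCR-ABL1 to downstream kinases, went from 5323 and 7319 bp to 20532 and 18503 bp, with slopes of -2575 and -2369 bp (exact permutation test, adjusted p = 0.0223 and 0.00969). As for the 10 genes, these slopes are in base pairs and not relative to the list totals.

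The gene whose log2 fold enrichment was most like that of each of the 10 over the 14 lists, on another chromosome or at least 1 Mb away, was CYBRD1 for CISH (r = 0.992), SART1 for SOCS1 (r = 0.955), DCLRE1C for SOCS2 (r = 0.976), FAM180B for PIM1 (r = 0.969), ZNF217 for BCL2L1 (r = 0.966), MRPS28 for MCL1 (r = 0.968), NEMP2 for CCND2 (r = 0.972), EZR for CCND3 (r = 0.973), ARHGEF10 for OSM (r = 0.887) and ATP5MK for ID1 (r = 0.963). These are the highest of 12191 genes each and share the same libraries, and OSM had the lowest value of likeness among the 10.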

How the data were processed

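H3K27ac ChIP-seq peak lists of 14 K562 libraries were analysed, 7 per arm. The 2 input libraries have no list and entered only through the authors' peak calling. Per the labels, reads were aligned with BWA 0.5.9 (hg38) after CASAVA 1.4, and the paper's methods name MACS2 in Partek Flow and hg19. The contig names and chromosome lengths in the lists are those of GRCh38, so positions were read as GRCh38 and none was converted. Replicates were not pooled. For each peak the authors deposited its position, its fold enrichment over the input of its arm (a ratio) and the -log10 of its q-value. The lists reach down to a -log10 q of 1.30, and peaks of at least 2 were used. The lists hold no read counts and the read depths of the libraries were not used here, so no counting interval is given.

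Windows were RefSeq gene bodies (GRCh38.p14) with 10 kb on either side, and 19630 of the 19974 protein-coding genes of the autosomes and chromosome X were used. The strand came from the RefSeq promoter table for 15813 genes and by symbol from GENCODE for 3817, whose coordinates were not used. No peaks overlapped within a list. Per window, the covered length and the fold enrichment of the strongest peak were taken, the latter as log2 in genes with a peak in every list compared. Trends were tested by Pearson's r with an exact permutation test, matched differences by an exact sign-flip test, both two-sided and adjusted over all genes tested (Benjamini-Hochberg, called at an adjusted p under 0.05). There is 1 library per condition, so p-values measure departures from exchangeable libraries and not biological replication.

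All 10 genes are named, with up to 4 called genes of the pathway list by slope and any called the other way, the most similar gene of each, and genes that start in a window. The genes, lists and tests were chosen with earlier results of these data known. Alternatives were stricter and looser q-values, other windows, rank and linear scales, scaling to each list, and leaving out each library or pair. The functions were tested on simulated data. The result for a marker gene of another lineage is not reported here. Computations used numpy 2.4.6 and scipy 1.17.1 under Python 3.11.15, and plots were drawn in matplotlib 3.10.9.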

Additional observations from a re-analysis of the deposited data

Results flagged for a closer look

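SOCS2 had a library far from the others in the normalized arm. The fold enrichment of its strongest peak was 15.2 in 0.31-T1, and the next lowest of the 7 normalized lists was 20.5, a gap of 0.580 of the whole range against a limit of 0.568. In 40 such groups, formed by 10 genes, 2 arms and 2 measures, this was the 1 value flagged, and about 1 in 20 groups would be by chance.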

How the results depend on the processing

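The number of the 10 genes whose covered length fell with titer (8) became 5 with Spearman's rho (34.7% of all genes), 0 as a share of each list's total (1.97%) and 0 without 0.31-T32 and 20-T0.5 (a choice made after seeing the data), and was 2 to 8 when 1 library was left out. As a share of the list total, r became 0.951 at PIM1, 0.965 at CISH, 0.589 at SOCS1, 0.83 at BCL2L1 and 0.771 at CCND3. The number whose fold enrichment fell (9) became 2 on a linear scale of titer (27.6% of all genes), 0 as a percentile within the list and 0 without the same pair, and was 6 to 9 when 1 library was left out. As a percentile, r became 0.689 at PIM1, 0.524 at SOCS1, 0.265 at MCL1 and 0.191 at ID1. With 5 libraries the smallest p is 0.0167 and with 5 pairs 0.0625, and the other causes were not tested. Stricter or looser q-values and windows left 6 to 9 genes called for covered length and 7 to 10 for fold enrichment, with 31% to 71% and 66.7% to 84.5% of all genes. ID1 was called for covered length under 5 alternatives. Single genes kept their direction and lost a call in 31 fits of covered length and 34 of fold enrichment, beside the changes of sign given above. The counts of 0 in the normalized arm and between the arms stayed at 0 under every alternative run, though single genes changed sign without being called in 20 and 18 fits of the normalized arm and in 8 and 4 of the matched differences. The fits that left out 1 pair could call no gene, since the exact sign-flip test cannot go below p = 0.0625 there. Their counts of 0 were thus fixed in advance. By replicate number, no paired analysis was possible because the labels give none, and the paired tests of the report matched libraries by DNA_chrom instead. Read depth was not used, and a peak that is not called may lack depth or signal.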
